A study of Mus musculus with 8 samples.

Results

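The collagen genes were the 44 genes, of 55358 named in the deposited files, whose symbols read Col, a number, a and a number with nothing after. They comprised 11 fibrillar genes, 6 basement membrane genes (type IV) and 27 others, which covered the beaded-filament, anchoring, short-chain, fibril-associated, multiplexin and transmembrane types. They were measured by RNA sequencing in mouse embryonic fibroblasts (MEFs), connective-tissue cells grown from embryos. The cells were wild type (WT) or Arid5a-/- (KO), and each genotype was kept for 24 h without IL-6 or with IL-6 at 100 ng/ml. The 4 groups, called WT, WT + IL-6, KO and KO + IL-6, had 2 libraries each (n = 2), and nothing beyond genotype and IL-6 is given for them. Arid5a is an RNA-binding protein that stabilises selected inflammatory transcripts, and IL-6 (interleukin 6) is a cytokine that signals through STAT3.

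Collagens are proteins of the extracellular matrix whose chains wind into triple helices. Fibrillar collagens form the cables of connective tissue, type IV collagens form the sheet-like network of basement membranes, and the others attach to fibrils, anchor membranes or build finer networks. Fibroblasts are a main source of types I, III, V and VI.

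Values were FPKM, fragments normalised to transcript length and to library size, summed over the transcripts of a gene. Levels below are therefore per length, but short transcripts weigh more in such sums. A transcript of 431 nt, for example, held 26.03 to 28.29% of the Col3a1 level by group. Shares, ranks and ratios between genes carry that limit. A gene was tested if it reached 1 FPKM in at least 2 of the 8 libraries, which held for 13693 genes. Differences are on the log2(FPKM + 1) scale, with their standard error, and understate the fold of low genes. They come from limma with Benjamini-Hochberg adjustment over all genes tested, and a gene passed at an adjusted p below 0.05. Whether replicate libraries stem from independent cultures is not given, and the p-values cover no more than the scatter among the sequenced libraries, which could be technical. In bulk RNA, fewer cells of a type and less RNA per cell cannot be told apart.

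Arid5a stood at 18.7 and 15.9 FPKM in WT, 30.9 and 31.0 in WT + IL-6, 5.51 and 6.85 in KO, and 8.47 and 8.15 in KO + IL-6, so it was lower in every KO library but not at 0. The depth read from the steps of low values was 37.3 to 46.9 M fragments per library (M, 1e6). The 2 genotypes differed in more than the labels give. Xist, the transcript of X inactivation, was at 55.2 to 61.0 FPKM in the 4 KO libraries and at no more than 0.00562 in WT libraries. The Y-linked Ddx3y was at 34.6 to 36.6 in WT libraries and at no more than 0.00746 in KO. All 8 fibroblast markers of a fixed list were lower in KO, with summed levels of 6487 to 7704 FPKM in WT libraries and 2172 to 2245 in KO libraries. All 8 mesothelial markers were higher in KO (38.9 to 53.2 against 1608 to 1664 FPKM summed), as were both epithelial markers tested of 6 (0.618 to 1.20 against 67.8 to 72.8 for the whole list) and both endothelial markers tested of 6 (0.310 to 0.628 against 10.8 to 12.03). Wt1, a defining mesothelial gene, was listed at 0 in WT and averaged 111 FPKM in KO. Contractile fibroblast (myofibroblast) markers summed to 67.7 to 159 FPKM in WT libraries and 584 to 639.5 in KO libraries. Without IL-6, 2 of the 4 tested were higher in KO, Acta2 (45.4 and 341 FPKM) and Tagln (59.0 and 252), Cnn1 was lower (9.96 and 3.19), and Myl9 missed the threshold (40.1 and 32.7, adjusted p = 0.0517). Over all genes, 36.4% were higher and 34.5% lower in KO without IL-6. Lists of macrophage, osteoblast, skeletal muscle and Schwann cell markers summed to no more than 14.8 FPKM in any library. The part of these in the genotype results below was not tested, and the sex of the cells and the genotype cannot be told apart in these libraries.

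Of the 44 collagen genes, 26 passed the filter on low values, 10 fibrillar, 4 basement membrane and 12 others. A gene that passed through 1 genotype alone had to differ between genotypes, so counts over the 26 are a description. Col11a1, Col14a1 and Col15a1 reached 1 FPKM in KO libraries only, and Col10a1 and Col24a1 in WT libraries only. Their genotype differences and p-values are a description as well. The summed collagen level was 2593 and 2524 FPKM in WT, 2274 and 2147 in WT + IL-6, 4810 and 4899 in KO, and 4529 and 4845 in KO + IL-6. This was 0.367 to 0.461% of all FPKM in the WT libraries and 0.842 to 0.907% in the KO libraries, and 1.07 to 1.31% against 2.27 to 2.46% of fragments. A Col5a1 transcript absent from the GENCODE M21 annotation has no known length here, so the fragment shares are uncertain by its part. Col1a1, Col1a2 and Col3a1 together held 47.6 to 50.5% of the collagen FPKM in every library. Within them the weight shifted: Col1a2 went from 20.4 and 20.5% of collagen FPKM in WT to 10.7% in both KO libraries, while Col3a1 went from 7.60 and 7.91% to 17.6 and 17.3%. Col1a1 ranked 126th and 127th among all genes by FPKM in WT and 46th in both KO libraries.

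**Figure D1:**
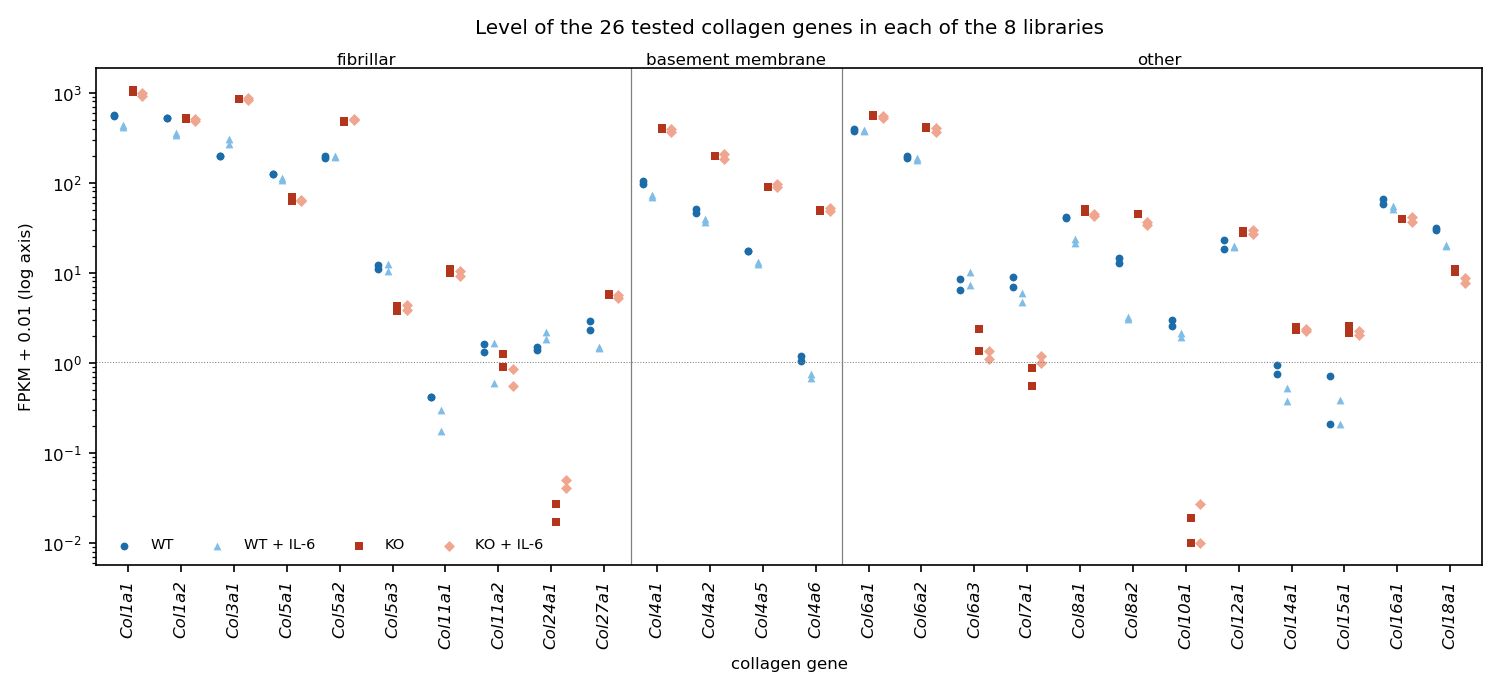
Level of each of the 26 tested collagen genes in each of the 8 libraries, as FPKM + 0.01 on a log axis, with genes grouped by class along the x axis. Points are single libraries; the libraries of a group lie close together for the abundant chains, and Col10a1 and Col24a1 drop to near 0 in KO.

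In WT cells, IL-6 lowered 11 of the 26 collagen genes and raised 1, Col3a1. The falls took in both chains of type I, all 4 tested chains of the basement membrane type and both chains of type VIII, the short-chain network collagen of vessel walls and eye membranes. Over all 13693 genes, 15.7% passed in this comparison, 8.30% higher and 7.41% lower. The median difference was -0.28 over the collagen genes and -0.002 over all genes. The groups did not overlap for 19 of the 26, of which 17 were lower with IL-6, against 56.3% of all genes without overlap. After scaling to equal total FPKM, 1 collagen gene was higher and 15 were lower, and over all genes 818 were higher and 1530 lower, in place of 1136 and 1014.

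Among the fibrillar genes, 1 of 10 rose and 4 fell. Col1a1 (chromosome 11, 94936224 to 94953042, plus strand), the main chain of type I fibrils, was at 565 and 557 FPKM in WT and at 442 and 418 in WT + IL-6. Both libraries with IL-6 lay under both without it (-0.38 ± 0.052, adjusted p = 0.00324). Col1a2 (chromosome 6, 4504814 to 4541544, plus strand), its partner chain, went from 530 and 518 to 356 and 337 (-0.60 ± 0.043, adjusted p = 0.000164), and these groups did not overlap either. Col3a1 (chromosome 1, 45311538 to 45349706, plus strand), the chain of the thin type III fibrils of early repair and of elastic tissues, moved the other way. It was at 197 and 199.6 FPKM in WT and at 309 and 266 in WT + IL-6, again without overlap (0.53 ± 0.067, adjusted p = 0.00238). Col27a1, a fibrillar chain of cartilage, was low and fell from 2.89 and 2.28 to 1.44 and 1.49 FPKM (-0.54 ± 0.094, adjusted p = 0.00977). That call was lost without WT + IL-6 replicate 1 (adjusted p = 0.0544) and when only WT groups were fitted (adjusted p = 0.0673). Type V collagen regulates the width of type I fibrils. Its Col5a1 chain was at 124.6 and 126 FPKM in WT and 113 and 109 in WT + IL-6, just past the threshold (-0.18 ± 0.049, adjusted p = 0.0496), and this call held in 7 of 18 alternatives. Leaving out any 1 library of the WT groups moved its adjusted p to between 0.0992 and 0.198, and leaving out a KO + IL-6 library to 0.0773 and 0.0772. Its Col5a2 chain, at 197 and 189 against 196.5 and 195 FPKM, overlapped between the groups (0.02 ± 0.037, adjusted p = 0.805). Neither the minor chain Col5a3, at 12.1 and 11.1 against 12.6 and 10.5 FPKM, nor Col11a1 and Col11a2 passed. Col24a1, a minor fibrillar chain, had 313 and 348 fragments in WT and 552 and 510 in WT + IL-6, a level 1.41 times as high without overlap. It missed the threshold (0.31 ± 0.098, adjusted p = 0.0771) but passed as higher with quantile normalization (0.0499) and without the intensity trend (0.0272).

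All 4 basement membrane genes tested passed, all lower with IL-6. Col4a1, the commonest chain of basement membranes, was at 106 and 96.1 FPKM in WT and at 73.0 and 70.2 in WT + IL-6 (-0.49 ± 0.057, adjusted p = 0.0016). Its partner Col4a2 went from 50.7 and 46.1 to 39.2 and 36.9 FPKM (-0.34 ± 0.072, adjusted p = 0.0206). Col4a5 and Col4a6, chains of another type IV network, went from 17.2 and 17.6 to 13.1 and 12.7 (-0.41 ± 0.047, adjusted p = 0.00155) and from 1.18 and 1.03 to 0.672 and 0.734 (-0.31 ± 0.063, adjusted p = 0.0177). For none of the 4 did the WT and WT + IL-6 libraries overlap. The calls for Col4a2 and Col4a6 depended on single libraries: adjusted p was 0.0995 and 0.075 without WT replicate 1, 0.0542 and 0.082 without WT + IL-6 replicate 1, and 0.106 and 0.0529 without WT + IL-6 replicate 2. Both were also lost when only WT groups were fitted (0.0656 and 0.0789), Col4a2 with no filter (0.0689) and Col4a6 with a pseudocount of 5 (0.177). Col4a3 and Col4a4, the chains of the kidney filter, were under the filter at no more than 0.154 FPKM in any library.

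Of the 12 other genes, 3 fell and none rose. Col8a2 (chromosome 4, 126286793 to 126314330, plus strand) had the largest fall of any collagen gene tested. It was at 14.5 and 12.7 FPKM in WT, and at 3.20 and 3.02 in WT + IL-6. The groups lay far apart, with 2370 and 2200 fragments against 523 and 504 by the depth read from the data. The level with IL-6 was 0.229 times that without it (-1.83 ± 0.071, adjusted p = 1.97e-05). Col8a1 (chromosome 16, 57624258 to 57754737, minus strand), its partner chain on another chromosome, went from 40.7 and 41.1 to 23.4 and 21.4 FPKM, or 0.547 times (-0.84 ± 0.059, adjusted p = 0.000149). Col18a1, a basement membrane proteoglycan whose end fragment is endostatin, went from 31.4 and 30.02 to 19.7 and 20.4 FPKM (-0.59 ± 0.069, adjusted p = 0.00161). Type VI collagen makes beaded filaments around cells, and its abundant chains moved little. Col6a1 was at 395 and 377 FPKM against 387 and 376 (-0.02 ± 0.044, adjusted p = 0.847), with overlap. Col6a2 was at 199 and 190.1 against 187 and 177 (-0.09 ± 0.051, adjusted p = 0.278), without overlap. Col6a3, at 6.37 and 8.42 against 10.2 and 7.25, overlapped as well (0.21 ± 0.215, adjusted p = 0.589). Col7a1, the anchoring-fibril collagen, was at 6.997 and 8.87 against 4.74 and 5.89 FPKM and missed the threshold (-0.50 ± 0.148, adjusted p = 0.0632). The fibril-associated Col12a1, Col14a1 and Col16a1 did not pass. Markers of contractile fibroblasts fell beside these genes in WT, 3 of the 4 tested of 5 listed, from 151 and 159 FPKM summed to 67.7 and 72.2, and their part in the collagen result was not tested.

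**Figure D2:**
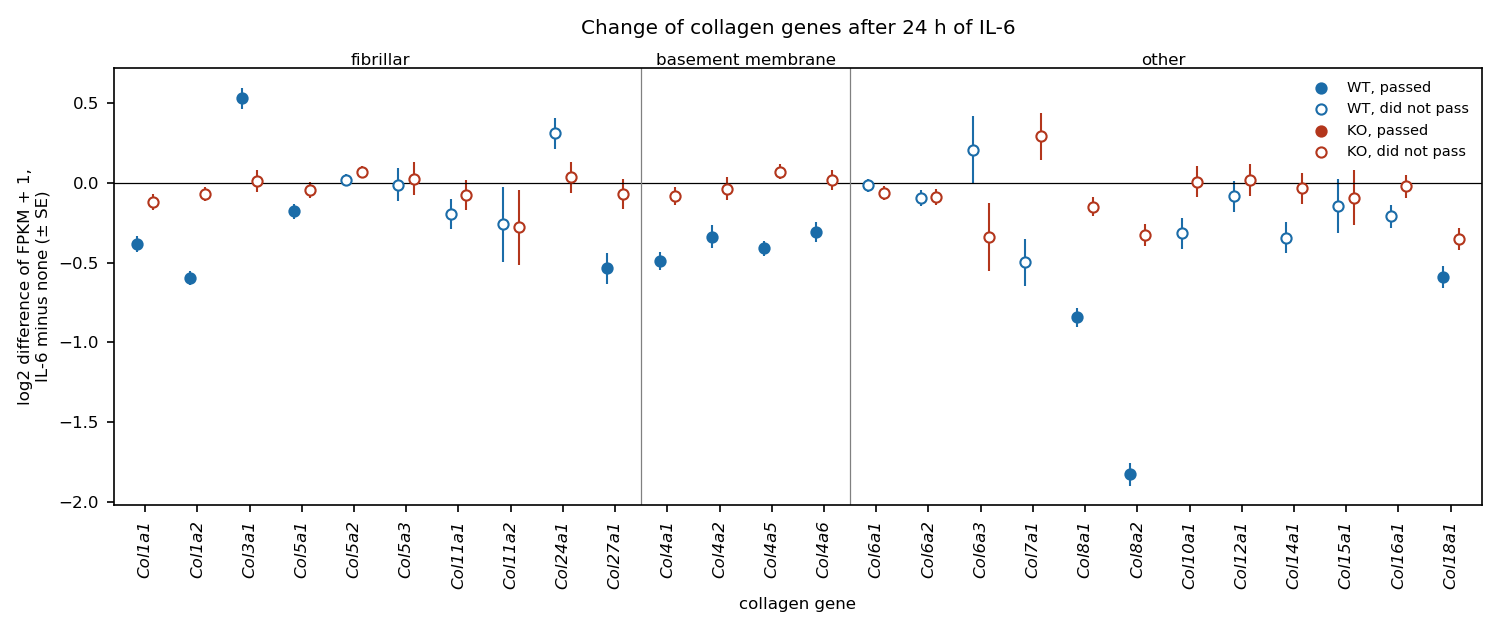
Log2 difference of FPKM + 1 between libraries with and without IL-6 (y axis, bars are ± SE) for each tested collagen gene, in WT (blue) and KO (red); filled points passed the adjusted p threshold. Col8a2 in WT stands lowest at -1.83, Col3a1 in WT highest at 0.53, and no point in KO is filled.

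In KO cells, limma called none of the 26 collagen genes after IL-6, and only 0.0219% of all genes (3) passed in this comparison. At an unadjusted p below 0.05 there were 3 collagen genes and 1025 genes in all. The 3 were Col8a1, Col8a2 and Col18a1, named after their values were seen, and all 3 were lower with IL-6, as in WT. Col8a2 was at 44.4 and 44.8 FPKM in KO and 34.1 and 36.7 in KO + IL-6 (-0.33 ± 0.071, adjusted p = 0.342). Col18a1 was at 11.1 and 10.3 against 8.68 and 7.62 (-0.355 ± 0.069, adjusted p = 0.279). Neither pair of groups overlapped, which held for 13 of the 26 and for 38.3% of all genes. The median difference over the collagen genes was -0.05, and the abundant chains lay close to 0, with Col1a1 at -0.12 ± 0.052, Col1a2 at -0.07 ± 0.043, Col3a1 at 0.01 ± 0.067, Col5a1 at -0.045 ± 0.049, Col5a2 at 0.07 ± 0.037, Col4a1 at -0.08 ± 0.057, Col4a2 at -0.04 ± 0.072, Col6a1 at -0.06 ± 0.044 and Col6a2 at -0.09 ± 0.051. Col6a3, at 2.36 and 1.34 FPKM in KO and 1.35 and 1.08 in KO + IL-6, was at -0.34 ± 0.215.

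The difference between the IL-6 changes, KO minus WT, was tested directly. It passed for 6 of the 26 collagen genes, 5 with a higher and 1 with a lower value in KO than in WT, where 6.06% of all genes passed (2.54% higher, 3.52% lower). Col8a2 led (1.499 ± 0.0997, adjusted p = 0.000598), followed by Col8a1 (0.69 ± 0.084, adjusted p = 0.00467) and Col1a2 (0.525 ± 0.060, adjusted p = 0.00375). Col4a5 followed at 0.48 ± 0.067 (adjusted p = 0.00872). All 4 fell with IL-6 in WT and had a KO value nearer to 0, and these 4 calls held in each of the 17 alternatives run for this comparison. Col3a1, the gene called higher in WT, had the only negative difference that passed (-0.52 ± 0.095, adjusted p = 0.0238), and Col4a1 passed at 0.41 ± 0.081 (adjusted p = 0.0317). Those 2 calls were less firm: leaving out any 1 of the libraries of WT, KO or KO + IL-6 moved Col3a1 to between 0.0588 and 0.0912, and every library except WT replicate 2 and KO + IL-6 replicate 1 moved Col4a1 to between 0.0702 and 0.0987. Both were also lost with no filter on low values (0.0905 and 0.0955), and Col4a1 without the intensity trend (0.0623). Among the other structural chains, Col1a1 at 0.26 ± 0.074, Col4a2 at 0.30 ± 0.102, Col5a1 at 0.135 ± 0.070, Col5a2 at 0.05 ± 0.053, Col6a1 at -0.05 ± 0.062, Col6a2 at 0.003 ± 0.072 and Col6a3 at -0.54 ± 0.304 did not pass.

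The sequence before the start is shown for both type VIII genes, which had the largest falls with IL-6 in WT, and for Col3a1, the only called rise. It comes from RefSeq on GRCm38.p6, which held promoters of 35 of the 44 collagen genes, 38 in all, and 32851 promoters over all genes. The motifs were searched on both strands in the 250 bases before the start. They were TATAAA, where basal transcription factors can bind, and CCAAT, a site of the nuclear factor Y complex. GGGCGG, the GC box of Sp-family factors, was the other common element. TTCNNNGAA is the spaced palindrome that STAT factors bind. Capitals mark the matches, and on the other strand GGGCGG reads CCGCCC. The windows read as follows.
Col8a1, chr16:57754738-57754987, minus strand: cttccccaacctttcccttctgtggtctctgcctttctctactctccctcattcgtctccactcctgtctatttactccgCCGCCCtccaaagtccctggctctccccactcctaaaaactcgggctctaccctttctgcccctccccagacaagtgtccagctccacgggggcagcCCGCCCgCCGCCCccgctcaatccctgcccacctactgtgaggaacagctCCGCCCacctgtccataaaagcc
Col8a2, chr4:126286544-126286792, plus strand: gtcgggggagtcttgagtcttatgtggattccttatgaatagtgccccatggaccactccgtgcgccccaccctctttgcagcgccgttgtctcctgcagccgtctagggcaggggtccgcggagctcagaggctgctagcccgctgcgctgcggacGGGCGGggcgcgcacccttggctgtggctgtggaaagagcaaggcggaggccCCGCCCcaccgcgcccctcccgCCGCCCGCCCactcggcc
Col3a1, chr1:45311288-45311537, plus strand: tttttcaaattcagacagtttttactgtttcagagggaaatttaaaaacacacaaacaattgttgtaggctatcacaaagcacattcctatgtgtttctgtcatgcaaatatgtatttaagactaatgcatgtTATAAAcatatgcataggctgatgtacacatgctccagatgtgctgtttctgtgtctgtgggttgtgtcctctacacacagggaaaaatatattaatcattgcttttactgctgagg
The Col8a1 and Col8a2 windows each held 4 GC-box matches, of which a pair in Col8a2 overlap, and no match to the other 3 motifs. The Col3a1 window held 1 TATAAA match 117 bases before the start and no GC box, and its G and C content was 35.2% against 60.8% and 70.0% in the type VIII pair. GC-box matches were in 22 of the 38 collagen promoters (57.9%) and in 32.7% of all promoters, while TATAAA was in 13.2 and 12.4%, CCAAT in 34.2 and 33.8%, and the STAT-type motif in 5.3 and 7.0%. A match is a string of letters and was not tested as a binding site.

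Between the genotypes, 24 of the 26 collagen genes differed without IL-6, 16 higher and 8 lower in KO, where 71.0% of all genes tested passed (36.4% higher, 34.5% lower). With IL-6, 17 were higher and 8 lower, where 71.7% of all genes passed (36.9% higher, 34.8% lower). The median difference over the collagen genes was 0.705 without and 1.007 with IL-6, beside 0.0069 and 0.0117 for all genes. Differences of at least 2-fold on the log2(FPKM + 1) scale were seen for 10 of the 16 and 6 of the 8 without IL-6. The share of all genes at that size was not counted, and the quartiles of their log2 differences were -0.372 and 0.412. In each condition 25 of the 26 had groups that did not overlap (85.0 and 85.8% of all genes). The higher genes without IL-6 were the 4 type IV chains, the fibrillar Col1a1, Col3a1, Col5a2, Col11a1 and Col27a1, and Col6a1, Col6a2, Col8a1, Col8a2, Col12a1, Col14a1 and Col15a1. The lower ones were the fibrillar Col5a1, Col5a3 and Col24a1, and Col6a3, Col7a1, Col10a1, Col16a1 and Col18a1, so chains of the same molecule went in opposite directions in types V and VI. Both comparisons share libraries with the IL-6 comparisons above and are not independent of them.

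**Figure D3:**
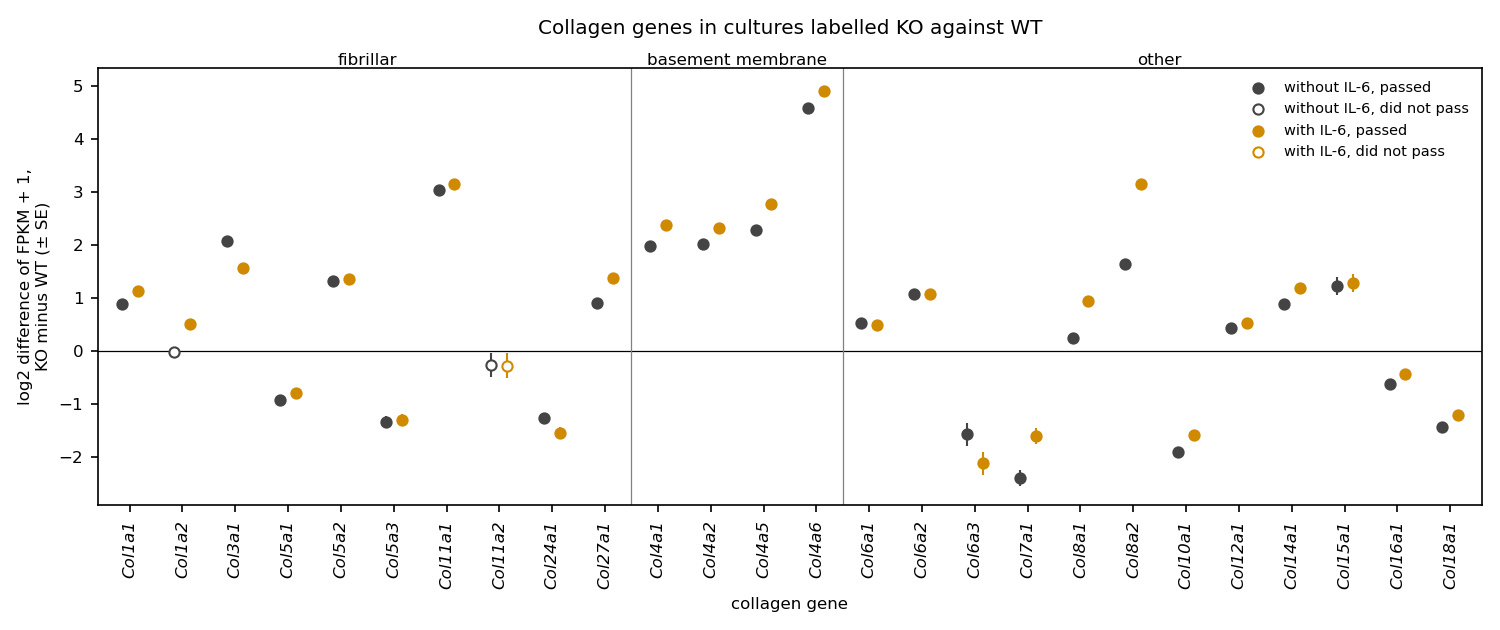
Log2 difference of FPKM + 1 between KO and WT libraries (y axis, bars are ± SE) for each tested collagen gene, without IL-6 (grey) and with IL-6 (orange); filled points passed. Col4a6 stands highest at 4.58 and 4.905, and Col7a1 without IL-6 lowest at -2.39.

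Of the 10 fibrillar genes, 5 were higher and 3 lower in KO without IL-6. Col3a1 was at 197 and 199.6 FPKM in WT and at 846 and 845 in KO, 4.26 times the level (2.09 ± 0.067, adjusted p = 1.16e-07). With IL-6 it was at 828 and 878 in KO, 2.97 times that of WT + IL-6 (1.57 ± 0.067). Col1a1 was at 1009 and 1059 FPKM in KO against 565 and 557 in WT (0.88 ± 0.052, adjusted p = 3.23e-06). Col1a2 did not follow its partner: at 515 and 524 FPKM in KO it overlapped the 530 and 518 of WT (-0.01 ± 0.043, adjusted p = 0.811). With IL-6, Col1a2 was at 481 and 508 in KO against 356 and 337 in WT (0.51 ± 0.043, adjusted p = 2.09e-05). The type V chains separated. Col5a2 rose from 197 and 189 to 477 and 486 FPKM (1.315 ± 0.037, adjusted p = 5.95e-08), whereas Col5a1 went from 124.6 and 126 to 62.8 and 68.7 (-0.92 ± 0.049, adjusted p = 1.85e-06) and Col5a3 from 12.1 and 11.1 to 3.79 and 4.22 (-1.33 ± 0.102, adjusted p = 1.39e-05). Col5a2 lies tail to tail with Col3a1 on chromosome 1, with 24614 bp between them. Col11a1, a cartilage fibril chain also made by some mesenchymal cells, was at 0.404 and 0.405 FPKM in WT and 10.95 and 10.01 in KO (3.03 ± 0.093, adjusted p = 9.18e-08). It passed the filter through KO alone. Its companion Col11a2 did not pass, at 1.59 and 1.32 against 1.23 and 0.878 FPKM, although it did with IL-6 when WT + IL-6 replicate 2 was left out (adjusted p = 0.0149). Col27a1 was at 5.83 and 5.59 FPKM in KO against 2.89 and 2.28 in WT (0.91 ± 0.094, adjusted p = 7.51e-05) and stood further above WT with IL-6 (1.38 ± 0.094). Chondrocyte markers were low throughout, at 3.22 to 4.14 FPKM summed over 10 genes in WT libraries and 5.195 to 6.74 in KO libraries. Of the 3 tested, 1 was higher and 2 were lower in KO without IL-6 and also with it, where 71.0 and 71.7% of all genes passed. Col24a1 went the other way: 313 and 348 fragments in WT, 552 and 510 in WT + IL-6, 3 and 2 in KO, and 4 and about 10 in KO + IL-6, too few in KO for a fold (adjusted p = 1.53e-05 and 4.74e-06). It passed the filter through WT alone.

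All 4 tested basement membrane genes were higher in KO, and their sum was 161 and 175 FPKM in WT and 738 and 740.3 in KO. Col4a1 was at 399.9 and 401 FPKM in KO against 106 and 96.1 in WT, and Col4a2 at 199.7 and 200.5 against 50.7 and 46.1, and their differences were alike in size (1.98 ± 0.057 and 2.03 ± 0.072, adjusted p = 6.42e-08 and 1.96e-07). These genes lie head to head on chromosome 8, where their annotated ends overlap by 22 bp. Col4a5 was at 89.5 and 88.8 FPKM in KO against 17.2 and 17.6 in WT (2.29 ± 0.047, adjusted p = 1.21e-08). Col4a6 was at 49.0 and 49.6 in KO against 1.18 and 1.03 in WT, 44.5 times the level (4.58 ± 0.063, adjusted p = 1.83e-09). On the log2(FPKM + 1) scale this was the largest difference of any collagen gene tested, though not the largest fold of means. With IL-6 the 4 differences were 2.385 ± 0.057, 2.33 ± 0.072, 2.77 ± 0.047 and 4.905 ± 0.063. Col4a5 (141475385 to 141689234, plus strand) and Col4a6 (141165403 to 141474076, minus strand) lie head to head on chromosome X with 1308 bp between their starts, and the WT and KO libraries differ in Xist and Y-linked RNA as given above. The windows before their starts are shown because both genes start from this interval and moved in the same direction by unequal amounts.
Col4a5, chrX:141475169-141475384, plus strand: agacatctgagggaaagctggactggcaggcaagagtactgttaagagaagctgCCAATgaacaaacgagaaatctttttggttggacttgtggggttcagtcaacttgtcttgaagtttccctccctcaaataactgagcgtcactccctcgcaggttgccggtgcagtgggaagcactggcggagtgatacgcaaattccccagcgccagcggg
Col4a6, chrX:141474077-141474326, minus strand: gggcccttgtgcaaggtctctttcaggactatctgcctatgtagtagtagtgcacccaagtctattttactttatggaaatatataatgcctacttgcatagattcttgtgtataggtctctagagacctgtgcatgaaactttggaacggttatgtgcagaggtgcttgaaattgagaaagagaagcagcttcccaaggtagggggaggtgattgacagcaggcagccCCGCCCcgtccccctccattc
Capitals mark a CCAAT box 196 bases before the RefSeq start of Col4a5, and a GC box 21 bases before that of Col4a6. The Col4a5 window is printed as far as the first annotated exon base, and 1 further GC box lies 30 bases before the RefSeq start, past the printed stretch. Neither window held a TATAAA or a STAT-type match.

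Of the 12 other genes, 7 were higher and 5 lower in KO in each condition. Col8a2 was at 44.4 and 44.8 FPKM in KO against 14.5 and 12.7 in WT (1.65 ± 0.071, adjusted p = 5.46e-07). With IL-6 the values were 34.1 and 36.7 against 3.20 and 3.02, or 11.4 times (3.14 ± 0.071, adjusted p = 1.68e-08). Col8a1 differed less, at 47.2 and 50.6 against 40.7 and 41.1 FPKM without IL-6 (0.25 ± 0.059, adjusted p = 0.00624). Among the type VI chains, Col6a1 rose from 395 and 377 to 555.0 and 561 FPKM (0.53 ± 0.044, adjusted p = 2.05e-05) and Col6a2 from 199 and 190.1 to 405 and 413 (1.07 ± 0.051, adjusted p = 9.92e-07). Col6a3, a large chain that can join those of Col6a1 and Col6a2 in type VI molecules, went from 6.37 and 8.42 to 2.36 and 1.34 FPKM (-1.57 ± 0.215, adjusted p = 0.000358). Col7a1, which ties epithelial basement membranes to the matrix beneath, went from 6.997 and 8.87 to 0.541 and 0.871 FPKM (-2.39 ± 0.148, adjusted p = 4.2e-06). Col18a1 went from 31.4 and 30.02 to 11.1 and 10.3 FPKM (-1.44 ± 0.069, adjusted p = 1e-06), and Col16a1 from 65.3 and 58.7 to 39.7 and 39.9 (-0.62 ± 0.071, adjusted p = 0.000131). Col10a1, the collagen of hypertrophic cartilage, stood at 354 and 326 fragments in WT and 221 and 251 in WT + IL-6, but at 1 and 0 in KO and 2 and 0 in KO + IL-6 (adjusted p = 1.4e-06 and 3.73e-06). It passed the filter through WT alone. Col10a1 lies within Nt5dc1 on the opposite strand over its whole 7105 bp, and Col18a1 overlaps Slc19a1 on the opposite strand over 8825 bp. The kit marks strand, but whether the counting used it is not given in the sources used here, so the values of both genes are uncertain to that extent. With IL-6 the lower genes kept their direction, with -2.115 ± 0.215 for Col6a3, -1.60 ± 0.148 for Col7a1, -1.30 ± 0.102 for Col5a3, -1.205 ± 0.069 for Col18a1, -0.79 ± 0.049 for Col5a1 and -0.44 ± 0.071 for Col16a1. Of the rest, Col12a1, Col14a1 and Col15a1, which bind fibrils or basement membranes, were higher in KO.

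Pairs of collagen chains were set against each other within each library as ratios of FPKM, chosen after their levels were seen and given with no test. The Col1a1 to Col1a2 ratio was 1.07 ± 0.0072 (SD, n = 2) in WT, 1.24 ± 0.0035 in WT + IL-6, 1.99 ± 0.042 in KO and 1.92 ± 0.039 in KO + IL-6. Type I collagen as usually made takes more Col1a1 than Col1a2 chains. For type V, the Col5a2 to Col5a1 ratio was 1.54 ± 0.063 in WT and 7.34 ± 0.370 in KO. A transcript absent from GENCODE M21, of a length not known here, held 36.8% of the Col5a1 level in WT and 38.5% in KO. Col3a1, a chain of type III and not of type I, stood at 0.353 ± 0.0067 of the Col1a1 level in WT, 0.667 ± 0.043 in WT + IL-6 and 0.818 ± 0.028 in KO. The Col4a1 to Col4a2 ratio of gene sums was by contrast close to constant, at 2.085, 1.88, 2.001 and 1.94 in the 4 groups, although the levels of Col4a1 and Col4a2 in KO were 3.97 and 4.13 times those in WT. A 618 nt transcript annotated for nonsense-mediated decay held 16.44, 20.58, 24.23 and 21.26% of Col4a1 in WT, WT + IL-6, KO and KO + IL-6. The 6615 nt Col4a1 transcript was at 83.35, 56.49, 300.8 and 294.8 FPKM, beside 48.42, 38.05, 200.1 and 195.1 for the 6450 nt Col4a2 transcript. The near-constant ratio is that of the sums, and a ratio of these long transcripts was not computed. Col4a5 to Col4a6 went from 15.8 ± 1.75 in WT to 1.81 ± 0.025 in KO. Col6a1 exceeded Col6a3 by 53.45 ± 12.3 times in WT and 327 ± 129 times in KO. The 2 KO libraries held 434 and 441 Col6a3 fragments, and their Col6a3 sums of 2.36 and 1.34 FPKM differed mainly in a 476 nt transcript, at 1.06 and 0 FPKM. Col8a1 to Col8a2 was 3.02 ± 0.313 in WT, 7.19 ± 0.180 in WT + IL-6, 1.10 ± 0.048 in KO and 1.245 ± 0.118 in KO + IL-6.

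**Figure D4:**
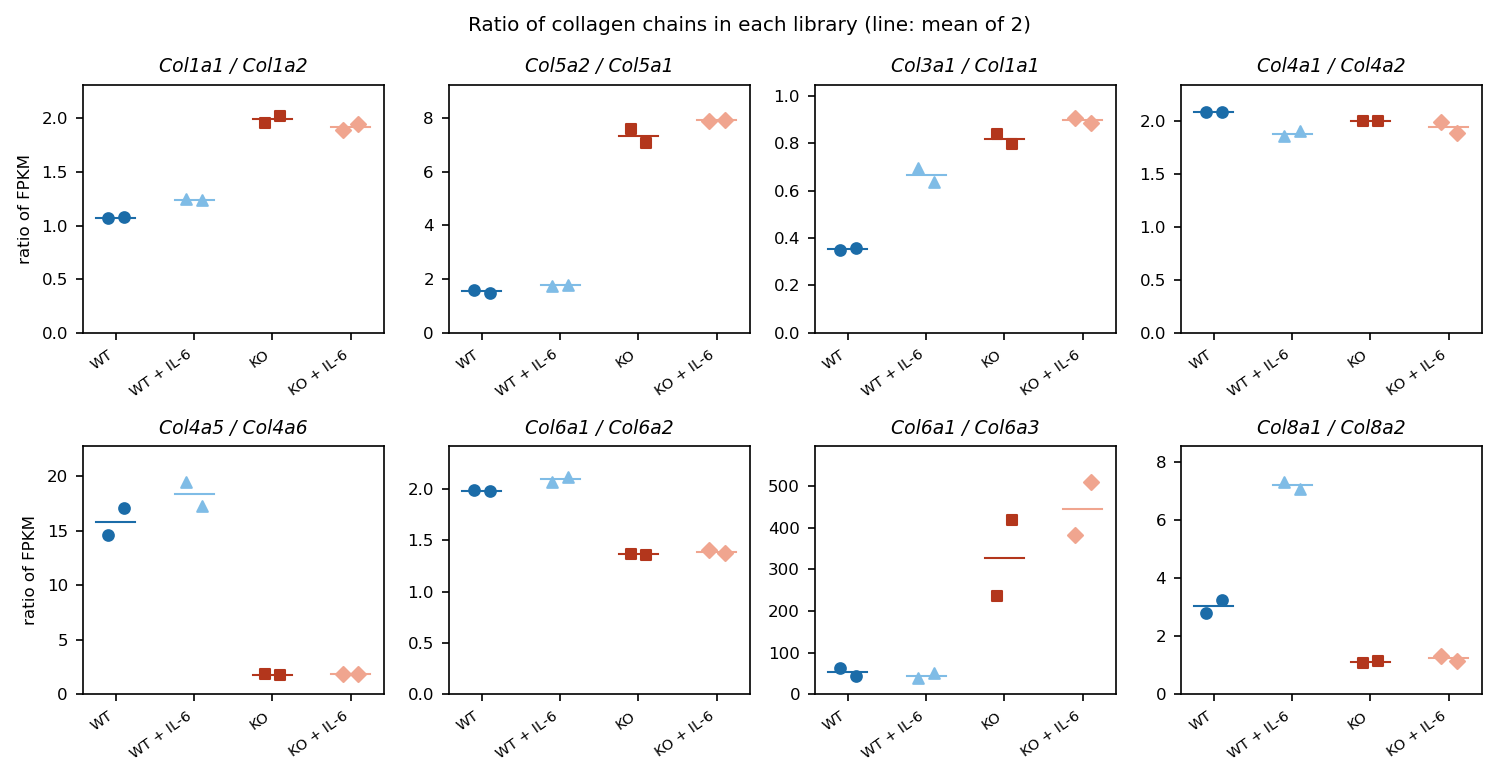
Ratio of FPKM between pairs of collagen chains (y axes, starting at 0) in each of the 8 libraries, with a line at the mean of the 2 libraries of a group. Col4a1 to Col4a2 stays between 1.86 and 2.085, while Col5a2 to Col5a1 and Col1a1 to Col1a2 separate the genotypes without overlap.

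Several gene levels rested on particular transcripts, described here from GENCODE M21 annotation on GRCm38 and chosen after values were seen. For Col18a1 (chromosome 10, minus strand), the long transcript of 5063 nt that starts furthest upstream was at 27.9 and 25.9 FPKM in WT, 18.2 and 17.4 in WT + IL-6, 4.18 and 4.36 in KO, and 3.78 and 4.07 in KO + IL-6. Transcripts from the downstream start, which encode the longer protein forms, went from 0.248 and 0.334 in WT to 1.26 and 1.07 in KO. A short internal transcript of 717 nt went from 1.99 and 1.71 to 5.14 and 4.85 FPKM and made up 46.7% of the Col18a1 level in KO. Since FPKM divides by length, short transcripts weigh more in the sum, and the long Col18a1 transcript was lower in KO by a larger factor than the gene sum was. For Col7a1, a different full-length transcript had the higher estimate in each genotype, at a far lower level in KO. The gene had 1560 and 1480 fragments in WT and only 74.2 and 120 in KO. The full-length transcript of 9250 nt was at 4.01 and 3.45 FPKM in WT and 0.000816 and 0.000814 in KO. That of 9198 nt, which starts further downstream, was at 0.00102 and 0.000577 in WT and at 0.207 and 0.296 in KO. The remaining Col7a1 signal in every library came from transcripts annotated as retaining introns. For Col16a1, the full-length coding form of 5206 nt was higher in KO at 11.9 and 12.7 FPKM against 6.44 and 8.39, while a form of 5138 nt with the nonsense-mediated decay biotype stood at 9.09 and 10.3 against 25.5 and 21.9. A retained-intron transcript of 431 nt held 26.03, 26.11, 27.83 and 28.29% of the Col3a1 level in KO, WT + IL-6, WT and KO + IL-6. How Cufflinks divides fragments among overlapping transcripts is an estimate, and the division was not tested here.

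**Figure D5:**
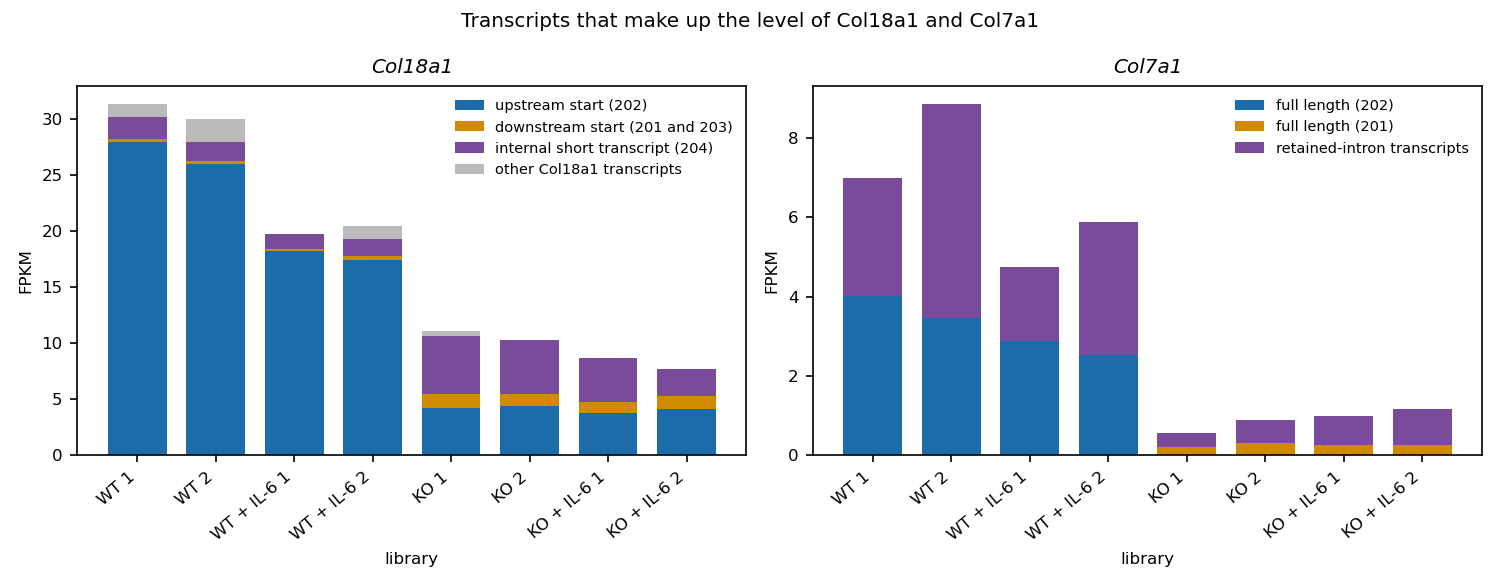
FPKM of transcript groups stacked for Col18a1 (left) and Col7a1 (right) in each of the 8 libraries; the height of a bar is the level of the gene. The blue long transcripts are at 27.9 and 25.9 FPKM in WT and 4.18 and 4.36 in KO for Col18a1, and at 4.01 and 3.45 in WT and near 0 in KO for Col7a1.

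The 18 collagen genes under the filter were all at 0.838 FPKM or less in every library. Col19a1 was listed at 0 in all 8, and 7 of the 18 had under 10 fragments in every library. In the fit without a filter, Col9a2 and Col23a1 passed in every comparison but IL-6 in KO. Col20a1 was lower in KO in both conditions (-0.24 and -0.28, adjusted p = 0.00351 and 0.00192). In the comparison without IL-6 and not in that with it, Col6a4 and Col6a5 passed as higher in KO (adjusted p = 0.0165 and 0.0428) and Col9a3 as lower (0.00273), and with IL-6 and not without it Col28a1 passed as higher (0.0104) and Col25a1 as lower (0.0305). Whether these differences changed with IL-6 was tested too, and for none of these 5 did it pass (adjusted p = 0.0867 to 0.889). Col9a2, a cartilage fibril-associated chain, had 54 and 52 fragments in WT, 24 and 15 in WT + IL-6 and at most 4 in any KO library (-0.45 with IL-6 in WT, adjusted p = 0.00318). Col23a1, a transmembrane collagen, had 101 and 87.9 fragments in WT, 27 and 31 in WT + IL-6 and at most about 5 in KO libraries (-0.32 with IL-6 in WT, adjusted p = 0.00614). Col2a1, the main cartilage fibril, had 92 fragments or fewer in every library and did not pass in any comparison. Col4a4, Col6a5 and Col28a1 had at most 51.1, 60.9 and 49.9 fragments in any library. The Col6a4 call rested on 9.02 and 10 fragments in KO against 2 and 3 in WT. Col25a1 had at most 6 fragments in any library. In WT + IL-6 replicate 2, 89.41% of its FPKM came from a transcript absent from GENCODE M21, so its fragment number there is uncertain.

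Genes that act on collagen were taken from lists by role. Of 21 tested genes for modification and folding in the endoplasmic reticulum, 4 were higher and 1 lower after IL-6 in WT, where 8.30% of all genes were higher and 7.41% lower. Plod3, a lysyl hydroxylase that also adds sugars to collagen, went from a mean of 91.6 to 119 FPKM (0.37 ± 0.047, adjusted p = 0.00226), while P3h2, a prolyl hydroxylase active on type IV collagen, fell from 13.1 to 10.1 (-0.34 ± 0.089, adjusted p = 0.0423). In KO without IL-6, 13 were higher and 4 lower, where 71.0% of all genes passed (36.4% higher, 34.5% lower). Higher were Serpinh1, the collagen chaperone HSP47 (361 to 973 FPKM, 1.43 ± 0.043, adjusted p = 7.96e-08), and Plod2, the telopeptide lysyl hydroxylase (21.8 to 67.4, 1.59 ± 0.043, adjusted p = 4.72e-08). P3h2 was lower (13.1 to 1.08, -2.76 ± 0.089, adjusted p = 1.2e-07). Of 13 genes for processing and crosslinking, 4 rose and 3 fell in WT with IL-6 (15.7% of all genes passed), with Lox, a crosslinking oxidase, at 276 and then 343.5 FPKM (0.32 ± 0.043, adjusted p = 0.00323) and Pcolce, the enhancer of procollagen C-proteinase, at 895 and then 1107 (0.31 ± 0.045, adjusted p = 0.0043). In KO 6 were higher and 5 lower (71.0% of all genes passed), and Pcolce was at 241 FPKM (-1.89 ± 0.045, adjusted p = 2.34e-08) and Loxl4 at 2.08 against 40.5 in WT (-3.75 ± 0.058, adjusted p = 3.14e-09).

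Of 9 tested genes of collagen breakdown, 4 rose and none fell in WT with IL-6, where 8.30% of all genes rose and 7.41% fell. The list counts the inhibitor Timp1 with the enzymes, so its counts give no direction of breakdown. Timp1, an inhibitor of matrix metalloproteinases, went from a mean of 114 to 337 FPKM (1.56 ± 0.034, adjusted p = 4.05e-06), and the collagenase Mmp13 from 1.85 to 7.07 (1.5 ± 0.085, adjusted p = 6.36e-05). In KO without IL-6, 7 were higher and 1 lower (36.4 and 34.5% of all genes), led by the gelatinase Mmp2 at 261 against 7.28 FPKM in WT (4.985 ± 0.052, adjusted p = 4.92e-10). Among 8 tested collagen receptors, 2 fell with IL-6 in WT (7.41% of all genes), Adgrg6 (15.2 to 8.65 FPKM, -0.75 ± 0.114, adjusted p = 0.00529) and Itga10 (2.65 to 1.42, -0.59 ± 0.096, adjusted p = 0.0068). The discoidin receptors, which bind collagen and signal as kinases, went in opposite directions by genotype: Ddr1 was at 159 FPKM in KO and 23.6 in WT (2.705 ± 0.057, adjusted p = 1.37e-08), and Ddr2 at 15.9 and 54.0 (-1.705 ± 0.075, adjusted p = 6.32e-07). In all, 3 receptors were higher and 4 lower in KO without IL-6, beside 36.4 and 34.5% of all genes. Of 12 tested partners of type IV collagen in basement membranes, 3 rose and 3 fell with IL-6 in WT (8.30 and 7.41% of all genes), Nid2 going from 7.20 to 3.68 FPKM (-0.81 ± 0.059, adjusted p = 0.000186). In KO without IL-6 5 were higher and 4 lower, a share near the 71.0% of all genes that passed. Nid2 was at 214 FPKM (4.71 ± 0.059, adjusted p = 1.25e-09) and the epithelial laminin chain Lama5 at 61.45 against 0.602 in WT (5.285 ± 0.069, adjusted p = 1.49e-09), while the mesenchymal laminin chain Lama4 was at 1.39 against 51.5 (-4.46 ± 0.071, adjusted p = 3.33e-09) and Nid1 at 72.9 against 149 (-1.02 ± 0.050, adjusted p = 1.22e-06). No gene of these 5 lists passed with IL-6 in KO, where limma called 3 genes in all.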

How the data were processed

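The deposited values were FPKM per transcript, made by the authors from HISAT2 alignments to GRCm38.p6 with Cufflinks 2.2.1, per the submitters' processing notes. Per the labels' protocols, total RNA from RNeasy columns went into stranded TruSeq mRNA libraries. The 142869 transcripts of each of the 8 libraries were summed here to 55358 genes by name. Depth is not given as counts. It was fitted to the steps of low values, of which 93.8 to 95.4% lay within 0.1 of whole fragments per library, with depths of 37.3 to 46.9 M fragments (M, 1e6).

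The 13693 genes that reached 1 FPKM in 2 or more libraries were tested on log2(FPKM + 1) by limma (version 3.58.1, under R 4.3.3). All 8 libraries entered 1 fit of group means, which left 4 residual degrees of freedom, the variance prior followed an intensity trend, and p-values were adjusted by Benjamini-Hochberg. The procedure was tested on simulated data, where it missed part of the added differences. The simulated noise was redefined, and the recovery asked of the test of the difference was lowered, after first results of that test were seen. Sums used pandas 2.3.3 and numpy 2.4.6 under Python 3.11.15, and figures matplotlib 3.10.9. Gene positions came from GENCODE M21 (97.11% of transcript names found) and promoters from RefSeq. No 2 libraries were identical.

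The members and lists were chosen with earlier results of these data known. The text names the type I, III, V and VI chains with Col4a1 and Col4a2, then in each comparison the 8 largest rises and 8 largest falls among called members without overlap and with at least 1 FPKM in the higher group, all members called for the difference between IL-6 changes, and up to 4 called genes of each other list. Other collagen genes, chain ratios, transcripts and promoters were chosen after values were seen. Same-numbered libraries of different groups did not deviate together (correlations of -0.097 to 0.055), so numbers were not taken as pairs. The alternatives were other filters, pseudocounts and scalings, no intensity trend, a block, fits of only the groups compared, and leaving out each library.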

Additional observations from a re-analysis of the deposited data

Results flagged for a closer look

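The change with IL-6 differed between KO and WT in 6 collagen genes by the direct test of the difference (limma, Benjamini-Hochberg adjustment over all genes), given as the KO change minus the WT change on the log2(FPKM + 1) scale. Type VIII showed it most, with 1.499 for Col8a2 and 0.692 for Col8a1. The values were 0.525 for Col1a2, 0.479 for Col4a5 and 0.406 for Col4a1. For Col3a1, the only gene called higher with IL-6 in WT, the value was -0.516. Col24a1, which was also higher there without overlap but passed only in 2 alternatives, had -0.276 (adjusted p = 0.31). Contractile-cell markers had the same kind of difference in 3 of 4 tested (6.06% of all genes passed), and their part in the collagen values was not tested.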

How the results depend on the processing

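No called collagen gene changed direction in any of the 18 alternatives, and limma called 0 collagen genes for IL-6 in KO in each. The collagen count was 8 to 16 for IL-6 in WT, 4 to 7 for the difference between IL-6 changes, 20 to 30 for KO against WT without IL-6 and 21 to 30 with it. By class, the IL-6 calls in WT were 5 fibrillar, 4 basement membrane and 3 other, and became 3 and 2 for the first pair with only the groups compared, and 5 to 7 other genes with no filter, a pseudocount of 5, no trend or equal total FPKM. Leaving out a library gave 3 to 5, 2 to 4 and 3. For the difference the classes held 2 each, and 1, 1 and 4 with no filter. Counts over all genes moved more. For IL-6 in KO they were 7 with no filter, 5 with a filter of 5 FPKM, 0 with only the groups compared and 0 to 4 on leaving out a library, against 3. For IL-6 in WT they were 938 with only the groups compared and 1165 to 1774 on leaving out a library, against 2150. For the difference between IL-6 changes they were 521 with no filter and 383 to 523 on leaving out a library, against 830. The cause was not tested. With a library left out, the lone library of its group is assumed to vary like the others.

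With the replicate number as a block, Col5a1 for IL-6 in WT (adjusted p = 0.0708) and Col4a1 for the difference (0.0596) no longer passed, and Col7a1 passed in both (0.0132 and 0.0202). The collagen counts were 12 and 6, as without the block. Without the most abundant member, sums of FPKM over a class were smaller, and KO stayed above WT in each class. Fibrillar sums without Col1a1 were 1068 and 1049 in the WT libraries and 1923 and 1945 in KO, in place of 1633, 1607, 2932 and 3004. Equal total FPKM brought Col7a1 (0.0431), Col10a1 (0.0441), Col14a1 (0.046) and Col16a1 (0.0336) past the threshold as lower with IL-6 in WT. Without the trend, Col10a1 (0.0279) and Col14a1 (0.0303) passed as lower and Col24a1 (0.0272) as higher. Depth limits the 18 genes under the filter and Col10a1 and Col24a1 in KO.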
